A study of Populus tremula x Populus alba with 6 samples.

Results

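The secondary wall cellulose synthases of poplar are 5 genes: CesA4 (Potri.002G257900, chromosome 2), CesA7-A (Potri.006G181900, chromosome 6), CesA7-B (Potri.018G103900, chromosome 18), CesA8-A (Potri.011G069600, chromosome 11) and CesA8-B (Potri.004G059600, chromosome 4). They were chosen by identifier, with no measured value in the rule but with earlier results of these data known. All 5 were found among the 32049 genes listed for each library. The chromosome is read from the identifier. The names come with that choice of identifiers and were not checked against an annotation or a sequence here.

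Transcripts were counted by strand-specific, polyA-selected RNA sequencing of shoot apices from 6 plants of the hybrid Populus tremula x Populus alba, clone 717-1B4. Of these, 3 carried an RNAi knock-down construct against DDM1 (RNAi 1, 2 and 3) and 3 were wild type (CTRL 1, 2 and 3). DDM1 is a chromatin remodelling protein on which the upkeep of plant DNA methylation depends. All 6 plants went through 3 weeks of drought and 1 week of renewed watering at 21 °C with 16 h of light, so that every comparison is between genotypes after the same stress. The labels speak of RNAi lines without tying a plant to a line or naming the promoter of the construct. The level of DDM1 and the markers of the shoot apex were not analysed here, because the files pair no identifiers with gene names, and the genotype and tissue therefore rest on the labels.

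Cellulose is made at the plasma membrane by complexes of CesA proteins, each of which extends a glucan chain. In the thick secondary walls of xylem vessels and fibres the complex contains the subunits CesA4, CesA7 and CesA8, and in Arabidopsis the loss of any of these subunits leaves thin walls and collapsed vessels. Primary walls of growing cells are made by complexes of other CesA proteins. Poplar kept pairs of CesA7 and CesA8 genes from a genome duplication in the willow family, and these are the A and B paralogs. A shoot apex consists mainly of meristem, young leaves and elongating stem, in which vascular strands are the tissue that forms secondary walls.

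Depth lay between 14216534 and 17165295 gene-assigned counts in the RNAi libraries and between 12399644 and 15627060 in the CTRL libraries. RNAi 2 stood apart on the first principal component of all tested genes (35.4% of the variance), at 63.7 against -6.49 and 8.88 in RNAi 1 and 3 and -34.2 to -14.6 in CTRL. Levels are given as CPM, for which counts were divided by library sizes corrected with trimmed-mean (TMM) factors. The limit set by 0 counts (taken as 3 counts) was 0.173 to 0.260 CPM, under the sense-strand level of every member in every library. CPM holds no gene length, so that a member's CPM can be compared between libraries but not with the CPM of another member.

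Fitted levels of all 5 secondary wall CesA genes were higher in RNAi than in CTRL, by 1.27-fold to 1.56-fold, but none of the 5 passed the test between the genotypes. The higher values came from RNAi 2 and RNAi 3, while RNAi 1 had the lowest RNAi level of each of the 5 genes and lay inside the CTRL range in all 5. The 5 genes together summed to 98.3, 164 and 197 CPM in RNAi 1, 2 and 3, against 104, 125 and 88.5 CPM in CTRL 1, 2 and 3. RNAi 2 and 3 thus lay above every CTRL library and RNAi 1 between CTRL 3 and CTRL 1, so that the groups overlapped. The mean sum was 153 ± 50.1 CPM in RNAi and 106 ± 18.5 CPM in CTRL (SD, n = 3 each). The mean log2 difference was 0.48 (1.40-fold), with an exact two-sided permutation p of 0.30 over the libraries, where 3 against 3 cannot reach a p below 0.10. It was 0.27 without RNAi 3 and 0.77 without RNAi 1. The 90% interval of this difference, which runs from the smallest to the largest difference between an RNAi and a CTRL library, spanned 0.784-fold to 2.22-fold. In bulk tissue, a difference in the number of wall-forming cells and a difference in RNA per cell cannot be told apart.

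CesA4 is the only gene of its subunit among the members, without a paralog. It had 440, 828 and 1148 counts in RNAi 1, 2 and 3, or 31.8, 53.0 and 66.2 CPM, against 385, 528 and 441 counts in CTRL 1, 2 and 3, or 33.3, 36.3 and 27.1 CPM. RNAi 2 and RNAi 3 exceeded all CTRL libraries, and RNAi 1 lay between CTRL 3 and CTRL 1. The mean was 50.4 ± 17.4 CPM in RNAi and 32.2 ± 4.68 CPM in CTRL (SD, n = 3 each). The log2 fold change was 0.65 ± 0.25 (SE), with a 95% interval from 0.06 to 1.23, an unadjusted p of 0.035 and, over 24991 genes, an adjusted p of 0.80 (edgeR, quasi-likelihood). Among all tested genes, 5.87% had a larger fitted change in either direction. With RNAi 3 left out the log2 fold change was 0.40, and with RNAi 1 left out it was 0.89.

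CesA7-A, the first of the CesA7 pair, had 203, 411 and 442 counts in RNAi 1, 2 and 3, or 14.7, 26.3 and 25.5 CPM, against 172, 262 and 234 counts in CTRL 1, 2 and 3, or 14.9, 18.01 and 14.4 CPM. This was the only member with a higher level in RNAi 2 than in RNAi 3, and RNAi 1 again lay inside the CTRL range. The mean was 22.2 ± 6.50 CPM in RNAi and 15.8 ± 1.96 CPM in CTRL (SD, n = 3 each), a log2 fold change of 0.49 ± 0.23 (SE; edgeR, adjusted p = 0.80). CesA7-B had 336, 645 and 813 counts in RNAi 1, 2 and 3, or 24.3, 41.3 and 46.9 CPM, against 305, 488 and 352 counts in CTRL 1, 2 and 3, or 26.4, 33.6 and 21.7 CPM. The groups overlapped through RNAi 1, which was lower than CTRL 1 and CTRL 2. The mean of CesA7-B was 37.5 ± 11.8 CPM in RNAi and 27.2 ± 5.99 CPM in CTRL (SD, n = 3 each), a log2 fold change of 0.47 ± 0.26 (SE; edgeR, adjusted p = 0.80). Without RNAi 3 the log2 fold change of CesA7-B was 0.27, and without RNAi 1 it was 0.70.

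CesA8-A had the fewest counts of the members and the least even RNAi values. It had 111, 167 and 333 counts in RNAi 1, 2 and 3, or 8.02, 10.7 and 19.2 CPM, against 115, 180 and 125 counts in CTRL 1, 2 and 3, or 9.95, 12.4 and 7.69 CPM. Here RNAi 2 lay inside the CTRL range, unlike in the other 4 members, and RNAi 3 alone exceeded the CTRL libraries. The mean was 12.6 ± 5.84 CPM in RNAi and 10.01 ± 2.34 CPM in CTRL (SD, n = 3 each), a log2 fold change of 0.34 ± 0.33 (SE; edgeR, adjusted p = 0.84). The direction depended on RNAi 3, without which the log2 fold change was -0.09. CesA8-B had 270, 514 and 672 counts in RNAi 1, 2 and 3, or 19.5, 32.9 and 38.8 CPM, against 230, 366 and 287 counts in CTRL 1, 2 and 3, or 19.9, 25.2 and 17.7 CPM. It followed the order of libraries seen for CesA4 in RNAi, with RNAi 1 inside the CTRL range. The mean of CesA8-B was 30.4 ± 9.86 CPM in RNAi and 20.9 ± 3.86 CPM in CTRL (SD, n = 3 each), a log2 fold change of 0.54 ± 0.25 (SE; edgeR, adjusted p = 0.80). Without RNAi 3 this value was 0.33, and without RNAi 1 it was 0.78.

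**Figure D1:**
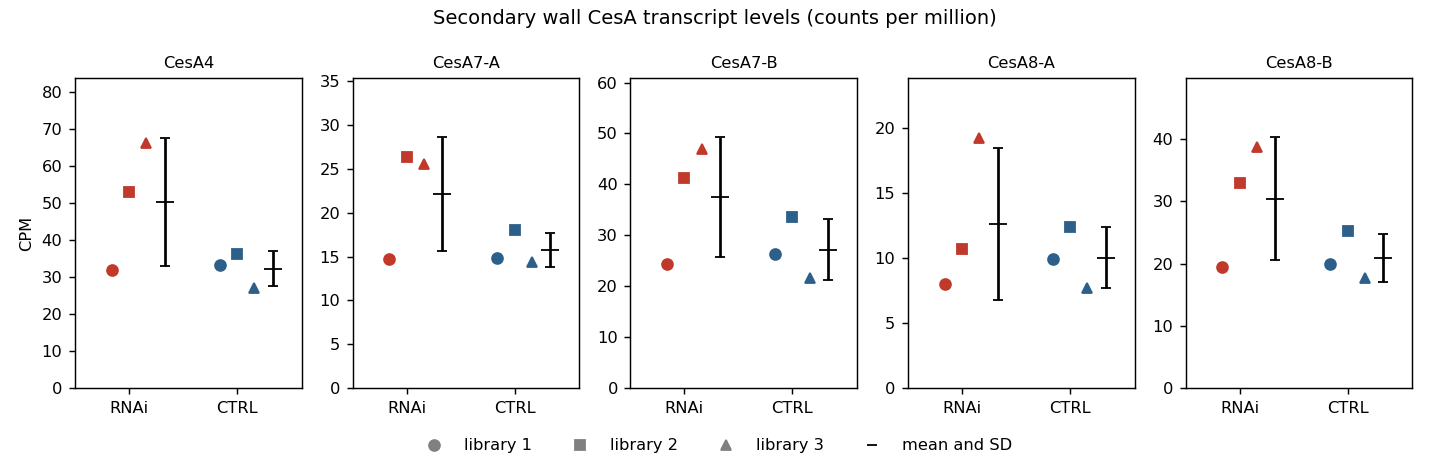
Level of each secondary wall CesA gene in CPM (y axis, from 0, a scale per panel) in the 3 RNAi and the 3 CTRL libraries, with the mean and SD of each group (n = 3). In every panel RNAi 1 sits at the height of the CTRL libraries and RNAi 3 above them, and in CesA8-A alone RNAi 2 also sits within the CTRL range.

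Of the 5 members 0 were called at an adjusted p under 0.05 in edgeR's quasi-likelihood test, where 0.00400% of all tested genes (1 of 24991) were called. At an unadjusted p under 0.05, 1 member was higher in RNAi (CesA4) beside 3.08% of all tested genes, and 0 were lower beside 2.56%. This count of higher members moved with single libraries. It was 4 without RNAi 1 (CesA4, CesA7-A, CesA7-B and CesA8-B), beside 5.06% of all genes tested there. Without CTRL 2 it was 2 (CesA4 and CesA8-B), beside 3.22%. It was 0 without RNAi 3 (beside 3.02%), RNAi 2 (2.31%), CTRL 1 (3.76%) or CTRL 3 (1.39%). CPM values of RNAi and CTRL overlapped in all 5 members, while 5.75% of all tested genes had every RNAi library above every CTRL library and 6.08% had every one below. The order with RNAi 3 highest and RNAi 2 second, seen in 3 members (CesA4, CesA7-B and CesA8-B) and noticed in these values, occurred in 3.31% of all tested genes. The likelihood ratio test of edgeR also called 0 of the 5 members, beside 0.244% of all tested genes (61 of 24991), DESeq2 0 beside 0.124% (37 of 29796) and limma-voom 0 beside 0.00800% (2 of 24991). With shares this low, a count of 0 among 5 genes says little about the members. The median log2 fold change was 0.49 over the members and -0.00096 over all tested genes, and 49.8% of all tested genes had a fitted change above 0. The members varied together between libraries (r of 0.745 to 0.992 between pairs), so that their shared direction does not count as 5 separate observations. The 95% intervals reached from 0.976-fold to 2.03-fold for CesA7-A, 0.914-fold to 2.09-fold for CesA7-B, 0.751-fold to 2.15-fold for CesA8-A and 0.970-fold to 2.19-fold for CesA8-B. A doubling in RNAi therefore lay inside the interval of each of these genes, as did no change.

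**Figure D2:**
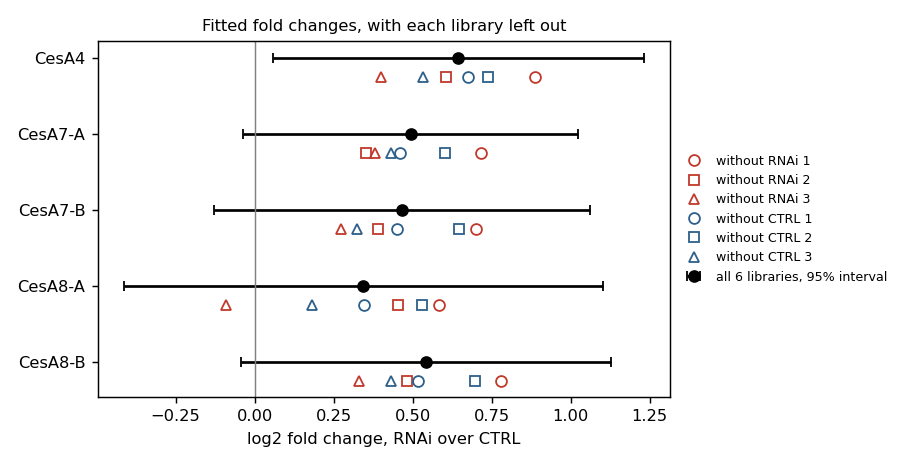
Fitted log2 fold change of RNAi over CTRL (x axis) for each member, with its 95% interval from edgeR over all 6 libraries (filled points) and the value with 1 library left out (open symbols). Leaving out RNAi 1 gave the highest value in all 5 genes, and CesA8-A without RNAi 3, at -0.09, is the only value below 0.

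Spread between plants of the same genotype was above the median of all tested genes for each of the 5 members. The biological coefficient of variation, the spread between replicates beyond counting error, was 0.229 for CesA4, 0.209 for CesA7-A, 0.231 for CesA7-B, 0.284 for CesA8-A and 0.228 for CesA8-B, against a median of 0.180 over all tested genes. A higher value was found in 13.2% of tested genes for CesA8-A and in 34.9% for CesA7-A, the ends of the range over the members. The common value fitted over all tested genes was 0.203. Within RNAi the highest library exceeded the lowest by 2.08-fold in CesA4, 1.79-fold in CesA7-A, 1.93-fold in CesA7-B, 2.39-fold in CesA8-A and 1.99-fold in CesA8-B. Within CTRL the same ratio was 1.34, 1.25, 1.55, 1.61 and 1.43 for these genes in that order. CTRL 2 had the highest CTRL level in all 5 members.

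The members varied together from library to library. On log2 CPM over the 6 libraries, Pearson's r between pairs of members lay between 0.745 (CesA7-A and CesA8-A) and 0.992 (CesA7-B and CesA8-B), and with the group means removed between 0.743 and 0.993, for the same pairs. The lowest r among the 6 pairs without CesA8-A was 0.953. CesA4, which has no paralog here, had r = 0.985 with CesA8-B and 0.969 with CesA7-B. These correlations describe 6 points that share library, depth and scaling factor, and no p is attached to them.

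Among the 15681 other tested genes with a mean of at least 10 CPM, the 3 whose log2 CPM was most like the log2 sum of the members over the 6 libraries were Potri.019G002100 (chromosome 19), Potri.009G129900 (chromosome 9) and Potri.012G066600 (chromosome 12). Their r with the sum was 0.996, 0.994 and 0.989 in that order, where the median over all candidates was -0.011 and 46 candidates (0.293%) reached 0.95. Potri.009G129900 had 352, 566 and 618 CPM in RNAi 1, 2 and 3, against 369, 449 and 338 CPM in CTRL 1, 2 and 3. Its profile repeats the order of the summed members in all 6 libraries, which the choice by r over these same libraries favours. Its swing was smaller, at 0.41 ± 0.24 in log2 (SE; edgeR, adjusted p = 0.80). Potri.019G002100 had 16.3, 21.9 and 23.1 CPM in RNAi, against 16.7, 18.8 and 15.4 CPM in CTRL (log2 fold change 0.27 ± 0.17, SE; edgeR, adjusted p = 0.80). Potri.012G066600 had 37.1, 41.3 and 43.8 CPM in RNAi, against 36.7, 38.5 and 34.8 CPM in CTRL (log2 fold change 0.15 ± 0.12, SE; edgeR, adjusted p = 0.82). The last of these differed least between libraries, since r measures likeness of pattern and not of size.

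**Figure D3:**
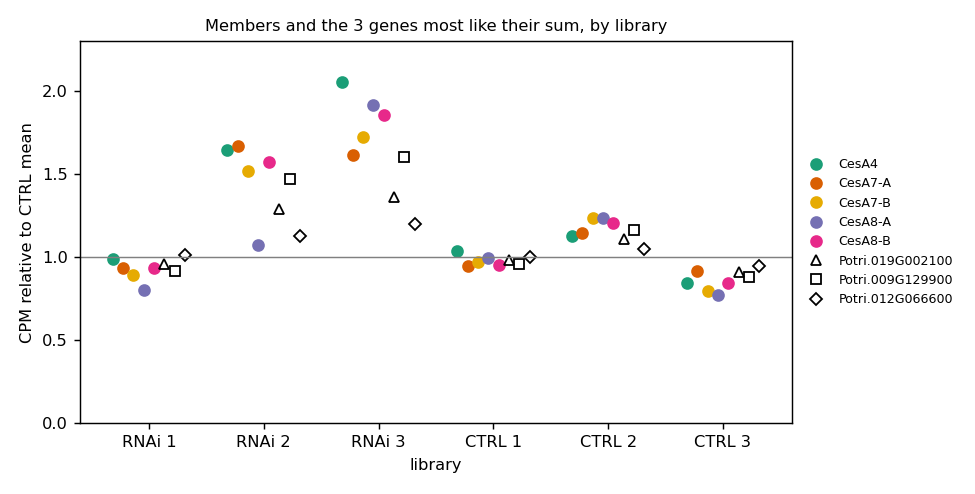
Level of each member (coloured points) and of the 3 genes most like their sum (open black symbols) in each library, divided by the gene's mean over the 3 CTRL libraries (y axis, grey line at 1). RNAi 3 reaches 2.05 for CesA4 and RNAi 1 lies between 0.802 and 0.986 for the members, and CesA8-A in RNAi 2, at 1.07, lies apart from the other 4 members there (1.52 to 1.67).

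Ratios of counts within a library cancel its size and any scaling, and gene length cancels when a ratio is compared between libraries. Relative to the 2.22-fold range of the summed level over the 6 libraries, the 5 ratios among paralogs and subunits ranged less widely, between 1.24-fold and 1.54-fold. The ratio of CesA7-A to CesA7-B counts was 0.604, 0.637 and 0.544 in RNAi 1, 2 and 3, against 0.564, 0.537 and 0.665 in CTRL 1, 2 and 3. The highest and the lowest of the 6 were both CTRL libraries. The mean ratio was 0.595 ± 0.047 in RNAi and 0.589 ± 0.067 in CTRL (mean ± SD, n = 3 each), a log2 difference of 0.02 with an exact two-sided permutation p of 0.90, or 1.0 adjusted over the 5 ratios, and a 90% interval from 0.818-fold to 1.19-fold. CesA7-A made up between 35.2% and 38.9% of the CesA7 counts in RNAi libraries and between 34.9% and 39.9% in CTRL libraries, and the exact 95% binomial intervals of all 6 libraries overlapped.

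CesA8-A over CesA8-B was 0.411, 0.325 and 0.496 in RNAi 1, 2 and 3, against 0.5, 0.492 and 0.436 in CTRL 1, 2 and 3. RNAi 2 had the lowest ratio, while RNAi 3 lay among the CTRL libraries. The mean was 0.411 ± 0.085 in RNAi and 0.476 ± 0.035 in CTRL (mean ± SD, n = 3 each), a log2 difference of -0.23 with an exact permutation p of 0.30, or 0.50 adjusted over the 5 ratios, and a 90% interval from 0.650-fold to 1.14-fold. The difference was -0.07 without RNAi 2 and -0.38 without RNAi 3. As a share of CesA8 counts, CesA8-A held 24.5% in RNAi 2 (exact 95% binomial interval 21.3% to 27.9%), below the intervals in RNAi 3 (30.2% to 36.1%), CTRL 1 (28.4% to 38.6%) and CTRL 2 (29.0% to 37.1%). Those of RNAi 1 (24.6% to 34.0%) and CTRL 3 (25.9% to 35.0%) overlapped with it. Such intervals cover counting error only. The files count multimapping reads apart from the genes, at 3.55% to 3.88% of the reads of an RNAi library and 3.43% to 3.88% of those of a CTRL library. How many of them stem from either pair was not tested, so that the split between paralogs is uncertain to that extent.

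Among subunits, the ratio of CesA4 to summed CesA8 counts was 1.15, 1.22 and 1.14 in RNAi 1, 2 and 3, against 1.12, 0.967 and 1.07 in CTRL 1, 2 and 3. It was the 1 ratio of the 5 in which the groups did not overlap, with every RNAi library above every CTRL library, RNAi 1 included. Against CesA8-B alone, CTRL 1 (385 over 230 counts) lay above RNAi 1 (440 over 270) and RNAi 2 (828 over 514). The groups thus overlapped when CesA8-A was left out of the sum. With summed CesA8, RNAi 3 (1148 over 1005 counts) and CTRL 1 (385 over 345 counts) lay nearest each other. No counting interval was computed for this ratio, and how often ratios of other genes separate likewise was not tested. The mean was 1.17 ± 0.04 in RNAi and 1.05 ± 0.08 in CTRL (mean ± SD, n = 3 each), a log2 difference of 0.16 with a 90% interval from 1.02-fold to 1.26-fold. Without CTRL 2 the log2 difference was 0.10. The exact two-sided permutation p was 0.10, the lowest this design can give, and 0.50 adjusted over the 5 ratios, so that the difference did not pass. CesA4 over summed CesA7 was 0.816, 0.784 and 0.915 in RNAi 1, 2 and 3, against 0.807, 0.704 and 0.753 in CTRL 1, 2 and 3, and overlapped through CTRL 1 and RNAi 2. Its log2 difference was 0.15, with an exact permutation p of 0.20 (0.50 adjusted) and a 90% interval from 0.971-fold to 1.30-fold, and it was 0.09 without RNAi 3 and 0.10 without CTRL 2. Summed CesA7 over summed CesA8 was 1.41, 1.55 and 1.25 in RNAi 1, 2 and 3, against 1.38, 1.37 and 1.42 in CTRL 1, 2 and 3. Its group means were 1.40 ± 0.15 in RNAi and 1.39 ± 0.03 in CTRL (mean ± SD, n = 3 each), a log2 difference of 0.01 with an exact permutation p of 1.0 and a 90% interval from 0.878-fold to 1.13-fold. RNAi 2 and RNAi 3 were the highest and the lowest of the 6 in this ratio, on either side of all 3 CTRL libraries.

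**Figure D4:**
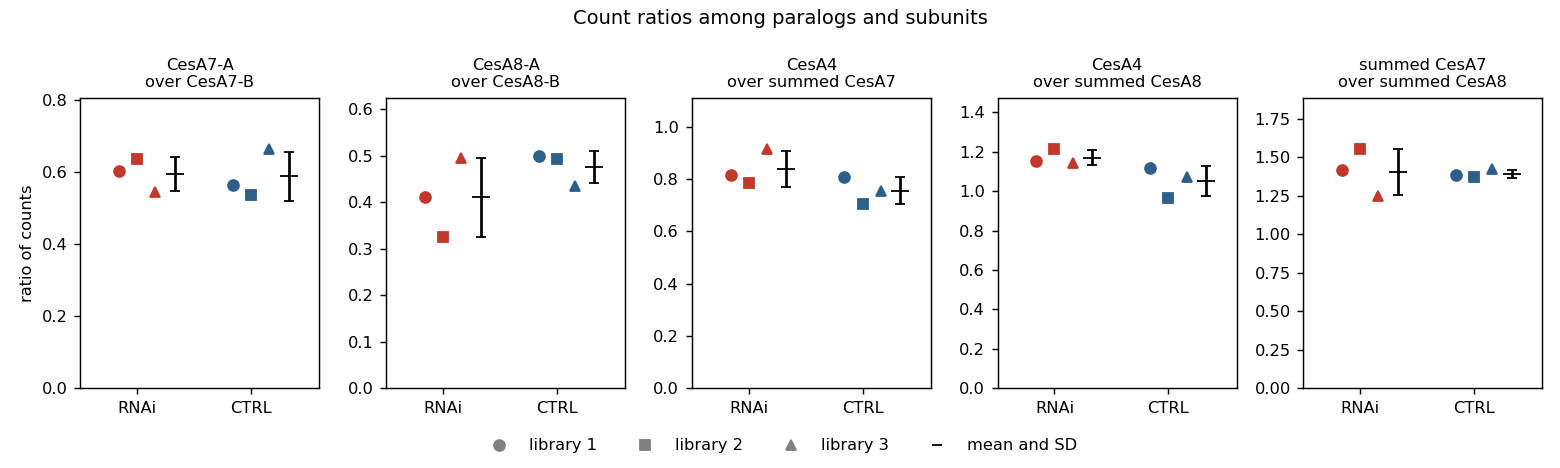
Ratio of counts within each library (y axis, from 0, no correction for gene length) for the 2 paralog pairs and the 3 pairs of subunits, with mean and SD of each group (n = 3). CesA4 over summed CesA8 is the only panel in which the 3 RNAi libraries (1.14 to 1.22) all lie above the 3 CTRL libraries (0.967 to 1.12).

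Of the counts of all 5 genes in a library, CesA4 held 32.4%, 32.3% and 33.7% in RNAi 1, 2 and 3, against 31.9%, 28.9% and 30.6% in CTRL 1, 2 and 3. CesA8-B kept nearly the same share in every library, between 19.7% and 20.0% in RNAi and between 19.1% and 20.1% in CTRL. The share of CesA7-B lay between 23.9% and 25.1% in RNAi and between 24.5% and 26.8% in CTRL. CesA8-A held 6.51% in RNAi 2, its lowest share, and between 8.16% and 9.87% in the other 5 libraries. These are shares of counts, which longer transcripts raise.

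Opposite-strand counts, those on the strand opposite to the gene, differed among the members. CesA8-B had 0 such counts in all 3 RNAi libraries and in CTRL 1 and 3, and 1 in CTRL 2, beside at least 230 sense counts. With CesA4 the number was 3, 3 and 1 in RNAi, against 1, 1 and 0 in CTRL. CesA7-A had 20, 38 and 35 opposite-strand counts in RNAi 1, 2 and 3, against 22, 40 and 34 in CTRL 1, 2 and 3. They made up 8.97%, 8.46% and 7.34% of its counts on both strands in RNAi, against 11.3%, 13.2% and 12.7% in CTRL. Over all genes of a library the share was 1.59% to 1.65% in RNAi and 1.67% to 1.82% in CTRL, likewise lower in every RNAi library.

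The share for CesA7-A was lower in every RNAi library than in every CTRL library, at 8.26 ± 0.83% in RNAi and 12.4 ± 0.98% in CTRL (mean ± SD, n = 3 each). The difference of -4.17 percentage points had an exact two-sided permutation p of 0.10, the smallest possible, and 0.30 adjusted over the 3 members with such counts in all libraries. Among 747 genes with at least 10 counts on each strand in every library, 8.43% likewise had all RNAi shares below all CTRL shares. The median share over these genes was 16.9% in RNAi and 17.5% in CTRL, above that of CesA7-A, but the required opposite-strand counts favour genes with a high share. Over all genes of a library the share, at 1.59% to 1.65% in RNAi and 1.67% to 1.82% in CTRL, was below that of CesA7-A. The opposite strand by itself gave 1.45, 2.43 and 2.02 CPM in RNAi 1, 2 and 3, against 1.90, 2.75 and 2.09 CPM in CTRL 1, 2 and 3, and these levels overlapped. Some reads of CesA7-A, 3, 4 and 7 in RNAi 1, 2 and 3 against 2 in each CTRL library, were counted with strand and not without it. For the other 4 members this number was 0 in every library. Whether the opposite-strand counts of CesA7-A stem from another gene on that strand was not tested. The opposite-strand share of CesA7-B was 3.17%, 1.98% and 2.87% in RNAi, against 2.24%, 3.37% and 6.63% in CTRL (exact permutation p = 0.40). That of CesA8-A was 0.893%, 4.02% and 0.893% in RNAi, against 4.17%, 1.64% and 3.85% in CTRL (exact permutation p = 0.30), from 7 counts at most.

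**Figure D5:**
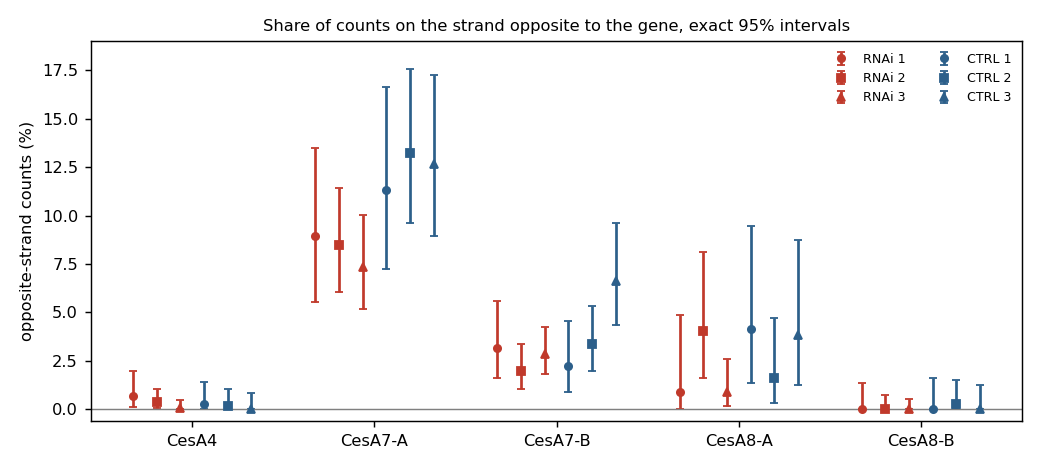
Share of a member's counts on both strands that lay on the strand opposite to the gene (y axis, in percent), per library, with exact 95% binomial intervals. CesA7-A stands above the other members in all 6 libraries, at 7.34% to 8.97% in RNAi and 11.3% to 13.2% in CTRL, and the intervals of single libraries overlap.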

How the data were processed

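The authors deposited raw counts per gene, 1 file per library, in columns for unstranded, forward-strand and reverse-strand counts, per the file headers. Per the labels' protocols the libraries were paired-end and made with the TruSeq stranded mRNA kit, and the submitters' processing notes name STAR. Version, genome build, annotation and filters: not given in the sources used here. The reverse column holds the sense strand with this kit and was used. Lines that name no gene (11.7% to 13.1% of reads) stayed out of library sizes.

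RNAi was compared with CTRL over the whole table by edgeR 4.0.16 in R 4.3.3 (quasi-likelihood F test, robust, TMM factors, filterByExpr, 24991 genes, two-sided) with Benjamini-Hochberg adjustment over all of them. SEs were obtained from the fitted change and F (change over root F). Single values were compared by exact permutation tests over libraries. No pair of libraries agreed within sampling noise (lowest chi-square over its degrees of freedom, 7.96). The design text calls the libraries of a group biological replicates. After removal of group means, same-numbered libraries (1, 2 and 3) had correlations of 0.24, -0.02 and -0.03. Different-numbered libraries were not set beside them, so that these values cannot exclude a pairing. The numbers were not taken as pairs.

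The members, lists and tests were chosen with earlier results of these data known. Named genes are the 5 members and the 3 most correlated with their log2 sum (log2 CPM with a prior count of 2). Lists of primary wall CesA genes, partners of cellulose synthesis, xylan genes and cell markers needed gene names that the files do not pair with identifiers, and were not analysed here. Alternatives used DESeq2 1.42.0, limma-voom (limma 3.58.1), other scaling, filters, the unstranded column, the replicate number as a block and each library left out.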

Additional observations from a re-analysis of the deposited data

How the results depend on the processing

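None of the 5 members was called under any of the 16 alternatives to the edgeR fit. Their log2 fold changes lay between 0.40 and 0.89 for CesA4, 0.35 and 0.72 for CesA7-A, 0.27 and 0.70 for CesA7-B, -0.09 and 0.58 for CesA8-A and 0.33 and 0.78 for CesA8-B, and every one of these ends came from leaving out a library. The negative value of CesA8-A (-0.091) arose without RNAi 3. Adjusted p over these alternatives lay between 0.49 and 0.9998. The summed level kept its direction, with a log2 difference between 0.27 and 0.77. Over all genes 1 gene was called in the edgeR fit, 37 with DESeq2, 61 with edgeR's likelihood ratio test, 2 with limma-voom, 0 with library size only, 0 with at least 1 CPM in 3 libraries, 0 with the replicate block, and between 0 and 7 with a library left out. With the replicate number as a block, which was not taken as a pairing, the log2 fold change of CesA4 was 0.59. At an unadjusted p under 0.05, CesA7-A alone was higher in RNAi under the block, beside 3.68% of all genes tested. CesA4 did not pass there. With limma-voom 0 members were higher, beside 2.74%. The likelihood ratio test gave 2 (CesA4 and CesA8-B), beside 3.34%. The ratio of CesA7-A to CesA7-B turned to a log2 difference of -0.033 with the unstranded column, and lay between -0.044 and 0.110 with a library left out. That of summed CesA7 to summed CesA8 turned to -0.025 with the unstranded column and lay between -0.067 and 0.089. The unstranded column takes in opposite-strand counts, which for CesA7-A were a larger share in CTRL than in RNAi. With it the log2 fold change of CesA7-A was 0.42, against 0.49 with the reverse column. The cause of the turns was not tested. CesA4 over summed CesA8 stayed between 0.10 and 0.20, CesA4 over summed CesA7 between 0.09 and 0.20, and CesA8-A over CesA8-B between -0.38 and -0.07. For opposite-strand shares, where the alternatives were chosen after seeing the data, the difference for CesA7-A lay between -4.71 and -3.71 percentage points, for CesA7-B between -2.33 and -0.13 and for CesA8-A between -2.32 and -0.76. The ratio of secondary to primary wall CesA genes was not run, for lack of gene names. CesA8-A had the fewest counts of the members (111 to 333) and also the largest biological coefficient of variation among them (0.284).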
